A study of Mus musculus with 3 samples.

Results

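The locus described here is that of Il2ra, with its upstream region, in induced regulatory T cells (iTreg cells). Its members are the peaks of 2 lists, BACH2 and JunD, that overlap a window of 95 kb on mouse chromosome 2, from 11530000 to 11625000 in the mm9 build. The window holds 12 of the 9133 BACH2 peaks and 12 of the 5237 JunD peaks, or 24 of 14370 peaks in all. It was selected on the peaks themselves, since it was known to carry crowded peaks of both factors and a JunD peak among the strongest of its list. The number, strength and overlap of the peaks are therefore given as a description, without tests.

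Each chromatin immunoprecipitation followed by sequencing (ChIP-seq) library came from wild-type C57BL/6 mice aged 8 to 12 weeks, per the labels. Splenic CD4+ T cells were sorted and kept for 4 days on plates coated with antibodies to CD3ε and CD28, in medium with TGF-β, which turns activated CD4+ T cells into iTreg cells in culture. BACH2 and JunD were immunoprecipitated in 1 library each, and an input library is labelled but not analysed here. The labels give a pair of catalogue numbers for the JunD antibody without saying which was used, and they do not say whether the cells of several mice were pooled.

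Il2ra encodes CD25, the alpha chain of the receptor for interleukin 2, which raises the affinity of the receptor for its ligand. Regulatory T cells carry CD25 at high levels and depend on interleukin 2, while other T cells make it after activation through the T cell receptor. Transcription of Il2ra is known to be controlled by its promoter and by several enhancers upstream of the gene and within its first intron. BACH2 is a repressor of the basic leucine zipper family that limits effector programmes in T cells, and JunD is a subunit of the activator AP-1. Both recognise AP-1-like DNA elements as dimers, so that they can meet at the same sites.

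Positions are given relative to 11564000 on chromosome 2, the approximate gene start that defined the locus. Negative distances are upstream. Distances run to the summit of a BACH2 peak and to the centre of a JunD peak, which has no summit in its list. No mm9 annotation was used here, so no peak is assigned to an exon, an intron or an untranslated region. In the gene order of RefSeq's GRCm38.p6 table, the nearest protein-coding genes are Rbm17 before Il2ra, which encodes an RNA-binding protein, and Il15ra after it, which encodes the alpha chain of the interleukin 15 receptor.

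The Il2ra promoter is shown because the strongest peak of each factor in the window covers the approximate gene start. It is RefSeq's sequence of the plus strand in the GRCm38.p6 build, chr2:11642542-11642841, a build whose positions cannot be set beside those of the mm9 peaks. Whether these peaks cover the annotated start was therefore not checked. The 250 bases before the annotated start are in lower case and the 50 bases from it on in capitals.

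Il2ra promoter: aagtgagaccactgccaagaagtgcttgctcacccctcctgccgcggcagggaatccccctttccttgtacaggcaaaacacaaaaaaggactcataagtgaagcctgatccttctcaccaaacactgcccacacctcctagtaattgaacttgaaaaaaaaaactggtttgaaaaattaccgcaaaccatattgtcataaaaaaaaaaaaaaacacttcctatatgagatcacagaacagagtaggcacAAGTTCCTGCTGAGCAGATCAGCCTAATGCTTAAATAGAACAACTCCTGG

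Of these 300 bases 42.7% were G or C, against a median of 52.7% over the 32851 promoters of the table. Searched on both strands, the window held no AP-1 element (TGANTCA), which 7.81% of the promoters held. It held no CRE element (TGACGTCA), found in 1.79%, and so none of the AP-1 elements preceded by TGC, a form of the longer element of BACH and Maf factors, found in 0.423%. These counts say only that the letters are not in this window. The BACH2 and JunD peaks at the approximate gene start are each wider than the 300 bases shown.

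At the approximate gene start, the strongest BACH2 peak of the locus lay inside the strongest JunD peak. The BACH2 peak ran from 11563974 to 11564628, with a fold enrichment of 9.03 over the caller's background and a −log10 q of 62.08, and its rank was 654 of 9133. Its summit was 304 bp downstream of the approximate gene start. The JunD peak ran from 11563935 to 11568153, a width of 4219 bp, with a score of 1136 that ranked 9 of 5237. The BACH2 peak began 26 bp and the JunD peak 65 bp upstream of 11564000, and the JunD peak reached 4153 bp downstream of it. That position is approximate, so it is not known whether either peak covers the annotated start or on which side the BACH2 summit lies.

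The BACH2 summit was not in the middle of this broad JunD peak. It lay 369 bp from the upstream edge of the JunD peak and 1740 bp from its centre. A second BACH2 peak, from 11566696 to 11567235, lay in the same JunD peak, with its summit 3019 bp downstream of the gene start. It was far weaker than the first within the BACH2 list, with a fold of 4.78, a −log10 q of 9.86 and a rank of 5347. The BACH2 summits were 2715 bp apart, and 2067 bp between the BACH2 peaks were covered by JunD alone. JunD peaks with 2 or more BACH2 peaks made up 2.1% of the JunD list, and this was the only one of the 12 at the locus.

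**Figure D1:**
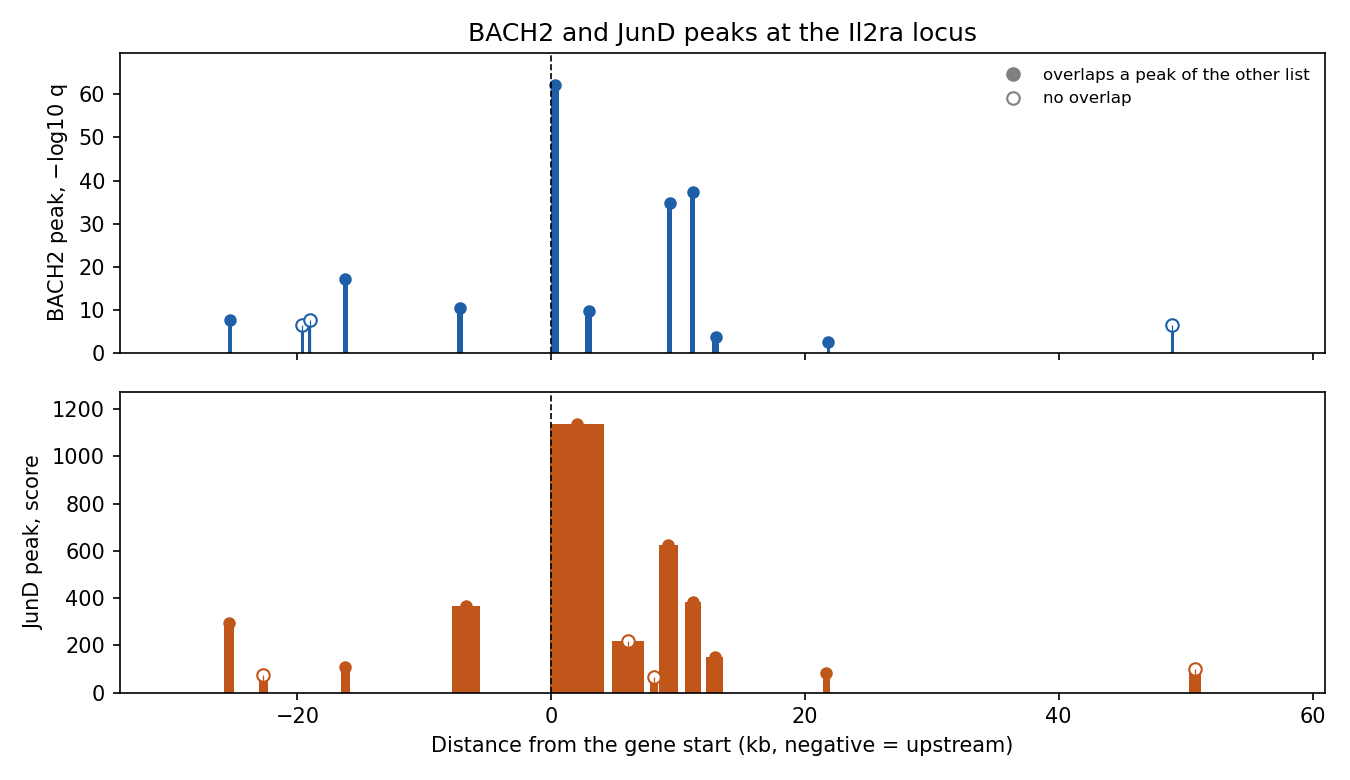
Peaks of BACH2 (top, −log10 q of each peak) and JunD (bottom, score of each peak) against distance from the Il2ra gene start in kb, with the width of each bar to scale, filled points for peaks that overlap the other list and open points for those that do not. The highest bar in each list stands at the approximate gene start. It has a −log10 q of 62.08 for BACH2 and a score of 1136 for JunD. The scales of the panels are not comparable.

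Downstream of the gene start, JunD peaks followed each other almost without a break. From 11563935 to 11577528, 6 JunD peaks covered 85% of 13.6 kb, and the gaps between neighbours were between 33 and 629 bp. In the same stretch 5 BACH2 peaks covered 18.9%. Its limits were drawn after the peaks were seen. When JunD peaks at most 1 kb apart were joined over the whole genome, these 6 became 1 region of 13594 bp, the longest of 4901 joined regions and the only region made of 6 or more peaks. The median joined JunD region was 555 bp long.

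The BACH2 peaks next in strength at the locus were in this stretch, each over a strong JunD peak. The peak from 11574950 to 11575341 had a fold of 7.12 and a −log10 q of 37.36, and the peak from 11573094 to 11573564 had a fold of 9.53, the highest at the locus, and a −log10 q of 34.93. They ranked 1376 and 1485 of 9133. The JunD peak around 11574950 ran from 11574569 to 11575846 and had a score of 384.55 (rank 139), and the one around 11573094 ran from 11572473 to 11574023 and had a score of 624.91 (rank 41). These sites were 11.2 and 9.34 kb downstream of the gene start. Their summits lay 35 and 96 bp from the centre of the JunD peak, close to the middle, unlike the summit at the gene start.

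The rest of the stretch held JunD peaks with a weak BACH2 peak or none. The JunD peak from 11568783 to 11571322 was 2540 bp wide, ranked 471 by a score of 216.38, and met no BACH2 peak; the nearest BACH2 peak was 1547 bp away. A narrower one from 11571768 to 11572439, with a score of 67.13, also met none, with a BACH2 peak 654 bp away. It was the weakest JunD peak of the locus and was separated from the JunD peak that ranked 41 by 33 bp. The last JunD peak of the stretch, from 11576235 to 11577528, had a score of 151.2. It held a BACH2 peak from 11576707 to 11577221 with a fold of 2.58, the lowest fold at the locus, and a −log10 q of 3.85, which ranked 8639. This weak BACH2 peak was nonetheless centred, with its summit 47 bp from the JunD centre.

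**Figure D2:**
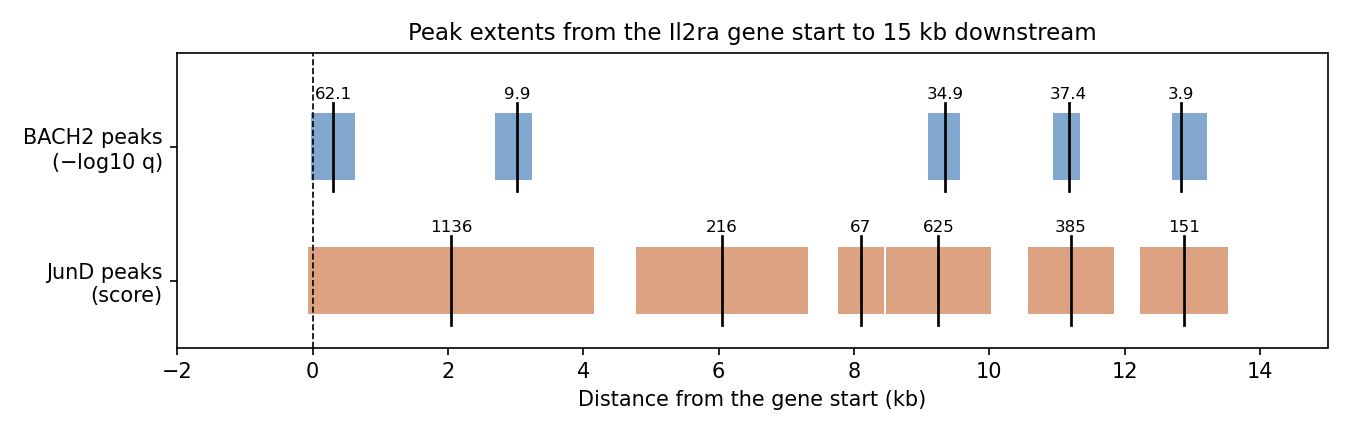
Extent of each BACH2 peak (top row) and JunD peak (bottom row) against distance from the Il2ra gene start in kb, with black ticks at the BACH2 summit or JunD centre and numbers giving the −log10 q (BACH2) or score (JunD). The 6 JunD peaks cover 85% of the stretch and the 5 BACH2 peaks 18.9%, and the JunD peaks of scores 216.38 and 67.13 have no BACH2 peak.

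Upstream of the gene start, 5 BACH2 and 4 JunD peaks were spread out to a distance of 25.4 kb. The nearest site was a JunD peak from 11556199 to 11558427, 2229 bp wide, with a score of 367.53 that ranked 152. It held a BACH2 peak from 11556588 to 11557043 with a fold of 3.76 and a −log10 q of 10.47, below the BACH2 list median of 11.8. The BACH2 summit, 7.17 kb upstream of the gene start, was 482 bp from the JunD centre, on its far side from the gene. Farther upstream, a BACH2 peak from 11547598 to 11547960 had a −log10 q of 17.24, the highest of the 5. It sat in a JunD peak from 11547418 to 11548144 of score 110.36, with 60 bp between summit and centre, 16.3 kb from the gene start.

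The farthest upstream site paired a strong JunD peak with a weak BACH2 peak. The JunD peak from 11538247 to 11539019 had a score of 296.58 (rank 232), and the BACH2 peak in it, from 11538509 to 11538847, a fold of 3.79 and a −log10 q of 7.82 (rank 6294). The summit was 25.3 kb upstream of the gene start and 89 bp from the JunD centre. The 3 remaining upstream peaks stood alone. BACH2 peaks from 11544275 to 11544528 and from 11544868 to 11545086, 339 bp apart, had −log10 q values of 6.57 and 7.83, and the nearest JunD peaks were 2.62 and 2.33 kb away. A JunD peak from 11540949 to 11541651 had a score of 73.99 and no BACH2 peak within 2.1 kb.

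Beyond the crowded stretch the window held few peaks. At 21.9 kb downstream, a BACH2 peak from 11585755 to 11585948 had a −log10 q of 2.76, the lowest at the locus, which ranked 8988 of 9133. It lay at the edge of a JunD peak from 11585395 to 11585966 of score 82.23, with its summit 209 bp from the JunD centre and 77 bp from the JunD peak's end. No peak of either list followed for 26.9 kb. The last 2 members were neighbours that did not touch: a BACH2 peak from 11612861 to 11613045 with a −log10 q of 6.62, 49.0 kb downstream, and a JunD peak from 11614279 to 11615186 with a score of 100.43, 50.7 kb downstream. They were 1.23 kb apart.

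The nearest peaks outside the window differed between the lists. The next BACH2 peak downstream, from 11626989 to 11627601, lay 1989 bp past the window's end and 63.3 kb from the gene start. It had a fold of 17.15 and a −log10 q of 69.09 (rank 538), stronger than any of the 12 inside, and no JunD peak overlapped it. On the upstream side the nearest BACH2 peak was 62.7 kb before the window, with a −log10 q of 13.63. The nearest JunD peaks were 178 kb before and 721 kb after the window, with scores of 90.55 and 72.27. Over the list, neighbouring JunD peaks were a median of 77.7 kb apart, with a mean of 0.191 peaks per 95 kb window.

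Most BACH2 peaks of the locus shared their position with JunD. Of the 12 BACH2 peaks, 9 were overlapped by JunD, against 29.3% of the whole BACH2 list. Of the 12 JunD peaks, 8 were overlapped by BACH2, against 48.8% of the whole JunD list. The window was known to hold overlapped peaks, so nothing is read from the difference. The counts stayed at 9 and 8 when at least 50% of the narrower peak had to be shared, against 29.0% and 48.5% of the lists. They fell to 0 of the 12 in either list when at least 50% of both peaks was asked for. That rule was met by 15.3% of BACH2 and 26.6% of JunD peaks over the lists. Counted in bases, 85.6% of the BACH2 peak length at the locus was covered by JunD, and 22.5% of the JunD peak length by BACH2, against 32.2% and 26.8% over the whole lists. The share of JunD bases with BACH2 was thus not above that of the list.

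Overlap was found at both ends of the BACH2 strength range. All 3 BACH2 peaks of the strongest 20% were overlapped, against 42.9% of that class in the whole list, and so were both BACH2 peaks of the weakest 20%, against 23.1%. The 3 BACH2 peaks without JunD had −log10 q values from 6.57 to 7.83, and the 9 with JunD ran from 2.76 to 62.1. The ranges overlap, and both of the weakest BACH2 peaks lay in JunD peaks. Among JunD peaks, 5 of the 6 in the strongest 10% of the list met BACH2, against 75.7% of that class. The 4 JunD peaks without BACH2 had scores from 67.1 to 216.38, against 82.23 to 1136 in the 8 with BACH2, again with overlapping ranges.

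Each of the 9 overlaps placed the whole BACH2 peak inside the JunD peak, as did 78.8% of the 2677 overlapping pairs of the full lists. The distance from BACH2 summit to JunD centre had a median of 96 bp and ran from 35 to 1740 bp, against a median of 55 bp over all pairs. It was at most 100 bp in 5 of the 9 pairs, against 70.1% of all pairs. The summits lay upstream of the JunD centre in 5 pairs and downstream in 4. The longest distances, 1740, 975 and 482 bp, all belonged to JunD peaks over 2 kb wide, in which a summit can lie far from the centre and still be inside.

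JunD peaks of the locus were broad and ranked high, while most BACH2 peaks were weak within their list. JunD widths ran from 572 to 4219 bp, and their median was 1093 bp where that of the list was 553 bp. Of the peaks, 6 of 12 were wider than 1 kb, against 9.26% of the list. A BACH2 peak overlapped 5 of these 6, against 61.4% of all JunD peaks over 1 kb. By score, 6 of the 12 JunD peaks were in the strongest 10% of the list and 10 in the stronger 50%, and the median JunD peak stood 13.3% of the way down. Ranked by score per bp, the median was 56.6% of the way down, and by width alone 8.63%. The part of width in the score was not tested.

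BACH2 peaks ran from 185 to 655 bp in width, and their median was 377.5 bp where that of the list was 267 bp. Only 1 of the 12 was in the strongest 10% by −log10 q, 4 were in the stronger 50%, and the median BACH2 peak stood 63.7% of the way down. The median −log10 q was 8.85, against 11.8 in the list, and the median fold 4.13, against 5.75. By fold the peaks ranked lower still, with a median 80.1% of the way down, and 9 of 12 were under the list median. The rank by fold was below the rank by −log10 q in 11 of 12 peaks, against 47.2% of the list, and the peak at 11585755 was the exception. In width alone the BACH2 peaks ranked high, with a median 22.4% of the way down. Ranks of the lists come from different scores and do not compare the strength of binding of the factors.

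**Figure D3:**
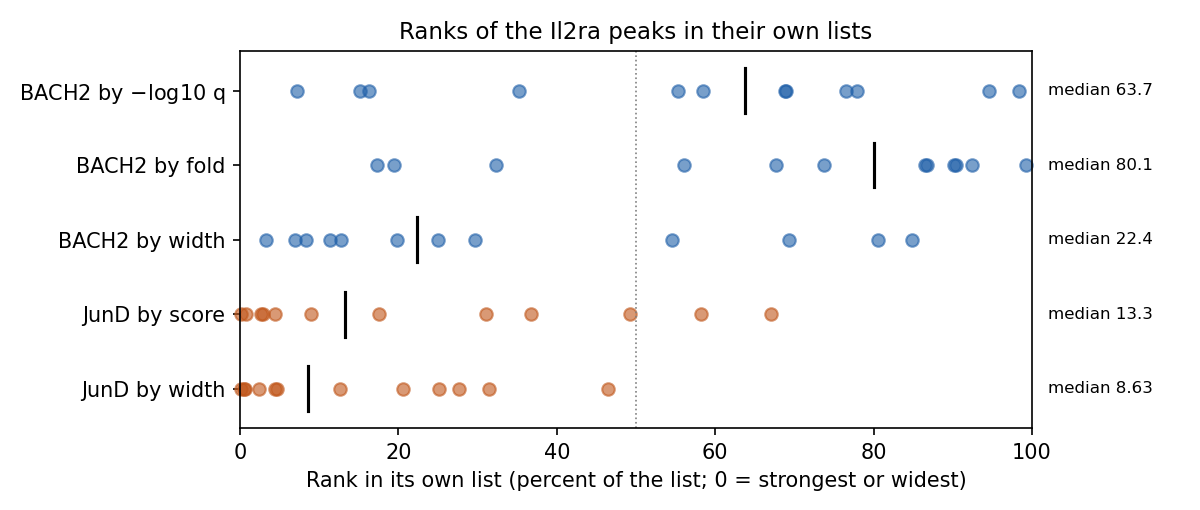
Rank of each of the 12 BACH2 and 12 JunD peaks of the Il2ra locus in its own list, as a percent of the list from strongest or widest at 0, by the measure named on the left; black ticks mark medians. The median JunD peak is 13.3% of the way down by score, and the median BACH2 peak 63.7% by −log10 q and 80.1% by fold.

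The density of peaks was set beside the rest of the genome by laying windows of 95 kb end to end over all chromosomes. Of 27689 windows, 22047 held no peak of either list, and the means were 0.331 BACH2 and 0.191 JunD peaks per window. At least 12 BACH2 peaks were held by 10 windows (0.0361%), and at least 12 JunD peaks by 6 (0.0217%), each count including the Il2ra window. The Il2ra window was selected with its crowded peaks known, so these shares are a description and nothing is read from them. The grid was laid from the Il2ra window, so that its group of peaks was not cut while other groups could be. In the strongest 50% of each list, 135 windows (0.49%) held at least as many BACH2 peaks as the 4 at Il2ra, and with peaks at most 1 kb apart joined, 21 windows (0.0758%) held at least as many JunD regions as the 7 there. On the full lists, only 3 windows had at least 12 of both, which were the Il2ra window, one on chromosome 6 starting at 129140000 with 14 BACH2 and 13 JunD peaks, and one on chromosome 13 starting at 23595000 with 14 and 13. The JunD peaks of the locus covered 17.5 kb, or 18.4% of the window, and the BACH2 peaks 4.58 kb, or 4.82%. Neighbouring peaks within the window were separated by a median of 5.43 kb for BACH2 and 1.93 kb for JunD, against 42.8 and 77.7 kb over the lists.

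**Figure D4:**
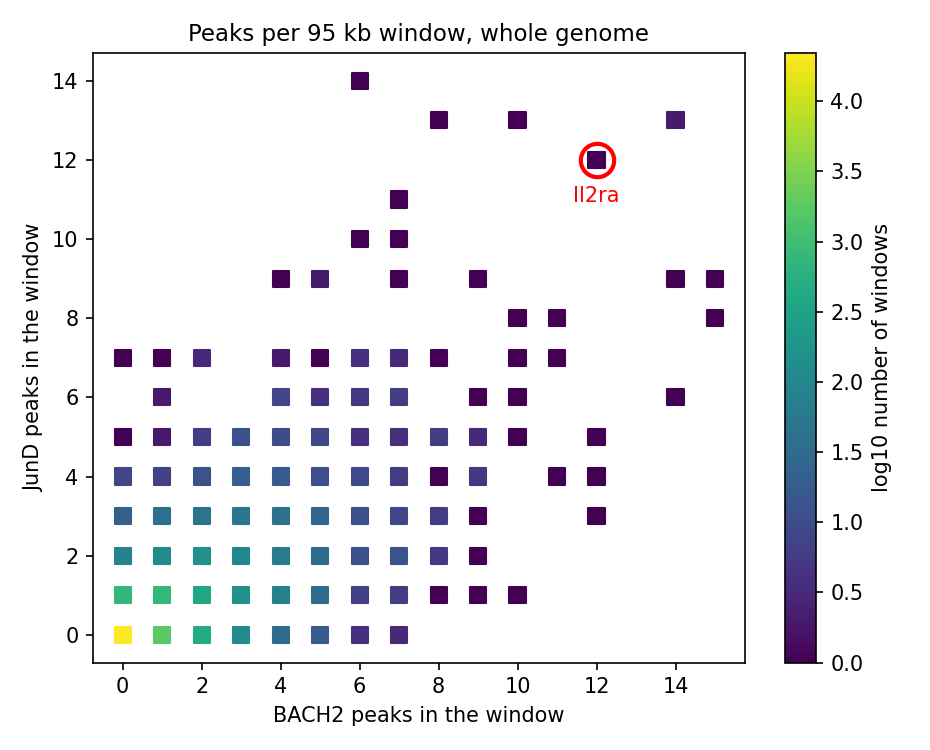
Number of BACH2 peaks (horizontal) and JunD peaks (vertical) in each window of 95 kb over the genome; colour gives the log10 number of windows at each pair of counts, and the red circle marks the Il2ra window. With 12 of each, it stands among the few windows rich in both lists, 3 of 27689 having at least 12 of both. The Il2ra window was selected with its crowded peaks known, so its place here is only a description.

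Joining all peaks that touch gave 15 separate regions at the locus, of which 8 held both factors, 3 BACH2 alone and 4 JunD alone. Together they covered 18.1 kb. The regions with both factors included the approximate gene start and 3 of the sites up to 13.5 kb downstream of it. The others were 3 sites upstream and the site at 21.9 kb downstream. The regions with 1 factor were on both sides of the gene start. Without a second library of either factor it cannot be told which of the weak peaks, such as the BACH2 peaks at 11576707 and 11585755, would be found again.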

How the data were processed

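Peak lists of a BACH2 and a JunD ChIP-seq library of mouse iTreg cells were used, with 1 library per factor and no replicate error. Per the submitters' processing notes, the aligner was Bowtie 0.12.9 and the build mm9. The version of the peak caller and the control it used are not given in the sources read. The deposited BACH2 list gives each peak a fold enrichment (a ratio), a −log10 p, a −log10 q, an integer score that follows from the −log10 q, and a summit, as read from its narrowPeak layout. The deposited JunD list gives a score whose scale is not stated. Neither holds read counts, so depth is unknown.

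Coordinates were converted to count from 1. Peaks were overlapped when they shared at least 1 bp, and were ranked by −log10 q or score. The window, members and measures were chosen with earlier results of these data known. Every peak of the window is named, and alternatives changed the overlap, peak width, threshold, window and ranking measure. Promoter and gene names came from RefSeq tables of GRCm38.p6. The counting of overlaps was tested on short made-up intervals placed on BACH2 peaks. The counting of peaks per window was checked against direct counts on the real lists. Python 3.11.15, numpy 2.4.6, pandas 2.3.3 and matplotlib 3.10.9 were used.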

Additional observations from a re-analysis of the deposited data

How the results depend on the processing

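Of 31 recomputed values of 9 results, 14 stayed close to the reported value (within 1.5 times, or within its Wilson interval for shares of windows) and 17 moved. Asking for 50% of both peaks left 0 overlapped BACH2 and 0 overlapped JunD peaks, since every BACH2 peak covered under 50% of its JunD peak. A limit of 100 bp between summit and centre left 5 of 12 BACH2 peaks, against 20.5% of the list, and 5 of 12 JunD peaks, against 35.8%. Setting every peak to 200 bp also left 5 and 5, against 25.1% and 43.7%. Keeping the strongest 50% of each list left 4 BACH2 peaks, 4 of them overlapped, against 22.3%, and 10 JunD peaks, 4 of them overlapped, against 38.3%. Joining peaks at most 1 kb apart left 7 JunD regions. The median BACH2 rank was 22.4% of the way down by width, and the median JunD rank 8.63% by width and 56.6% by score per bp. The share of windows with as many BACH2 peaks was 0.0181% with the grid moved by 50% of a window and 0.49% in the strongest 50%. For JunD it was 0.00725% in the strongest 50% and 0.0758% with joined peaks. With the moved grid, the count asked for stayed at 12, although that grid splits the Il2ra window. Its share is therefore not like the main one, which counts the whole Il2ra window. No paired analysis was possible because each factor had 1 library. Weaker sites that the callers left out cannot be counted, at a sequencing depth that the files do not give.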
